A study of Mus musculus with 12 samples.

Results

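Mitochondrial ribosomal protein genes were taken as the genes whose symbol is Mrpl or Mrps followed by digits alone, with joined symbols split and the entry of highest mean kept for each. By this rule 73 of 23042 gene entries were members, 47 with an Mrpl symbol and 26 with an Mrps symbol, and all 73 were found in both tissues. Transcript levels were compared between wild-type (WT) mice and MED13cTg mice, which overexpress the Mediator subunit MED13 in the heart, in both heart ventricles and epididymal white adipose tissue (EWAT).

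Mitochondria carry their own ribosome, which makes only the few respiratory chain proteins encoded in mitochondrial DNA. Its RNAs come from mitochondrial DNA, whereas all of its proteins are encoded in the nucleus, made in the cytosol and imported. Some of these proteins have bacterial homologs and others are found only in mitochondrial ribosomes, and recessive mutations in several of them, including MRPL3, MRPL44 and MRPS22, cause cardiomyopathy in humans.

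The mice were C57BL/6 male littermates, 6 weeks old per the labels, kept on normal chow and fed ad libitum, with tissue taken in the late afternoon. Each genotype had 3 libraries per tissue (12 in all), made from total RNA with a TruSeq kit. The promoter that drives the transgene is not given in the sources used here. The study asked which genes respond to cardiac MED13 in the heart itself and at a distance in fat. Levels are given as FPKM (fragments normalized to the length of the transcript and the size of the library), and differences as MED13cTg minus WT on the log2(FPKM + 1) scale, which understates the change of genes with low values.

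The targeted gene matched its labels, since Med13 lay at 10.6 to 13.1 FPKM in WT ventricles and at 181 to 263 FPKM in MED13cTg ventricles. In EWAT it stood at 9.43 to 10.9 FPKM in WT and 7.84 to 11.0 FPKM in MED13cTg mice. Cardiomyocyte markers were abundant in every ventricle library (summed level of 8 markers 66519 to 94768 FPKM), and the summed level of 5 atrial markers was 447 to 743 FPKM in WT and 996 to 2443 FPKM in MED13cTg ventricles. The atrial markers include Nppa, which the study reported as raised in MED13cTg ventricles, so their sum does not measure atrial tissue alone. Epididymis markers (12 of 13 found) were abundant in EWAT and summed to 68853 to 86784 FPKM in WT mice. These markers summed to 11159, 207 and 65354 FPKM in MED13cTg 1, 2 and 3. Adipocyte markers (8 genes) summed to 13326 to 31808 FPKM in WT, and to 1288, 79010 and 17219 FPKM in the MED13cTg libraries in the same order. Testis germ cell markers (7 genes, protamines among them) summed to 213 to 303 FPKM in WT and 344 FPKM in MED13cTg 3, but to 13638 FPKM in MED13cTg 1 and 5.83 FPKM in MED13cTg 2. MED13cTg 1 and 2 also stood apart in their whole profiles. Rank correlations with the other EWAT libraries were 0.351 to 0.494 for MED13cTg 1, and those of MED13cTg 2 were 0.793 to 0.854 with WT and 0.822 with MED13cTg 3, against 0.958 to 0.973 among WT. In bulk tissue such as this, fewer cells of a type and less RNA per cell cannot be told apart.

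Genes of this family are known for promoters without a TATA box that hold sites for the factors NRF1, YY1 and the ETS family, which tie nuclear genes to mitochondrial biogenesis. RefSeq promoters (250 bases before to 50 after the annotated start, GRCm38.p6) were matched for 64 of the 73 genes. A gene was counted where any of its promoters held the letters. The NRF1 letters (GCGCA, any base, then GCGC), searched on both strands, were present in 12 of the 64 (18.8%, against 7.17% of 17492 protein-coding genes). The ETS letters CCGGAAG were present in 21 (32.8%, against 12.9%), and the YY1 letters AAGATGGC in 11 (17.2%, against 3.57%). At least 1 of these 3 was held by 38 genes (59.4%, against 21.0%), and TATAAA by 5 (7.81%, against 14.8%). A gene could hold several of them, and a match describes letters only. The 150 bases before the start are printed for 6 of the genes whose levels are described in the following paragraphs, with NRF1 or ETS letters in capitals. These genes do not stand for the family. Mrpl21, Mrpl37 and Mrpl14, also described there, held their letters only after the start and are not printed.
Mrpl12 (chr11:120484487-120484636, plus strand): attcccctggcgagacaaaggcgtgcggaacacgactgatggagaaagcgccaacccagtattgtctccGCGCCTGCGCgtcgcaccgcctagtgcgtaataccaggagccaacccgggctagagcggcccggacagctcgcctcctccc
Mrpl39 (chr16:84735245-84735394, minus strand): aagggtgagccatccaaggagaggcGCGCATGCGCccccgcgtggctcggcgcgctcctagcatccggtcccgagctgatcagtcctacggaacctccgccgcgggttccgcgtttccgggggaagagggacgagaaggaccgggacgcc
Mrps21 (chr3:95871515-95871664, minus strand): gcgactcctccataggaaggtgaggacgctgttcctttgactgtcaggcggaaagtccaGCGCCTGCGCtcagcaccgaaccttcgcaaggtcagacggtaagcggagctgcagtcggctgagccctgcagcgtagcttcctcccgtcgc
Mrpl3 (chr9:105053118-105053267, plus strand): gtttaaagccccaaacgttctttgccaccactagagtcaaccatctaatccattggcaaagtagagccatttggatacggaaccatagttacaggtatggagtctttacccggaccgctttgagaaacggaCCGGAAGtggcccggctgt
Mrpl52 (chr14:54426759-54426908, plus strand): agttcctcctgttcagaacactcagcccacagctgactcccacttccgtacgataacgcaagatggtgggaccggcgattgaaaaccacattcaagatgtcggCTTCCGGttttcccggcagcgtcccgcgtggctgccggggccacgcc
Mrps2 (chr2:28467916-28468065, plus strand): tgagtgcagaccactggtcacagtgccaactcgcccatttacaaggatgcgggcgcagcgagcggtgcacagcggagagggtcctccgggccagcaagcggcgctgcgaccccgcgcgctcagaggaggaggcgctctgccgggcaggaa
Mrpl12, Mrpl39 and Mrps21 thus held NRF1 letters upstream of the start, Mrpl3 and Mrpl52 held ETS letters there, and the Mrps2 promoter held none of the 3 motifs. In ventricles the median log2 difference between genotypes was -0.052 for the 12 genes with NRF1 letters against -0.081 for the 52 without, and -0.035 for the 21 with ETS letters against -0.092 for the 43 without. For YY1 letters it was -0.090 for the 11 genes with and -0.073 for the 53 without. In EWAT it was -0.20 and -0.18 by NRF1 letters, -0.31 and -0.062 by ETS letters, and -0.38 and -0.15 by YY1 letters, each with the genes that hold the motif given before those that do not. In the same order, median WT levels in EWAT were 39.8 and 44.5 FPKM, 69.6 and 37.8 FPKM, and 45.6 and 41.85 FPKM. The differences by motif were not tested.

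In WT ventricles the family spanned 7.86 to 833 FPKM, with a median of 77.0 FPKM. Mrpl42, a large subunit protein with no bacterial homolog, was the most abundant at 833 ± 66.4 FPKM (SD, n = 3). It was followed by Mrps21 at 413 ± 81.7 FPKM, Mrpl30 at 408 ± 67.7 FPKM, Mrpl33 at 393 ± 64.7 FPKM and Mrpl12, the stalk protein related to bacterial L7/L12, at 389 ± 65.1 FPKM. Those 4 lay within their SD of each other, whereas Mrpl42 lay above each of them by more than both SDs combined. At the other end were Mrps2 at 22.9 ± 1.37 FPKM, Mrpl35 at 17.0 ± 2.56 FPKM, Mrps25 at 16.1 ± 0.528 FPKM, Mrpl17 at 12.4 ± 1.32 FPKM and Mrpl19 at 7.86 ± 0.682 FPKM.

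In WT EWAT the order was broadly alike, with a median of 44.7 FPKM and a range of 4.18 to 2735 FPKM. Mrpl37 was the most abundant there at 2735 ± 332 FPKM (SD, n = 3), far above Mrpl52 at 395 ± 29.7 FPKM, Mrps6 at 360 ± 19.7 FPKM, Mrps21 at 231 ± 18.5 FPKM and Mrpl33 at 199 ± 2.80 FPKM. The lowest were Mrps25 at 10.8 ± 0.793 FPKM, Mrpl15 at 8.30 ± 0.378 FPKM, Mrpl1 at 7.95 ± 0.255 FPKM, Mrpl35 at 5.74 ± 0.731 FPKM and Mrpl19 at 4.18 ± 0.10 FPKM. Across the 73 genes the WT levels of the tissues had a Spearman rho of 0.837, and 64 genes had the higher mean in ventricles, with a median ratio of ventricle to EWAT of 1.80. The ratio was 7.56 for Mrpl42, 4.59 for Mrpl3 and 4.50 for Mrps36, and 0.443 for Mrpl52, 0.155 for Mrps6 and 0.0471 for Mrpl37. The tables of the tissues were estimated separately, so these ratios are a description without a test. The Mrpl37 entry shares its locus with that of Ssbp3 and the Mrps6 entry is joined with Slc5a3, so both values are uncertain. Epididymis markers summed to 68853 to 86784 FPKM in these WT EWAT libraries, so the levels are not those of fat alone. The part of epididymal RNA in them was not tested.

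In ventricles no mitochondrial ribosomal protein gene passed the test between genotypes. The limma fit over all 12576 genes put 0 of the 73 past an adjusted p of 0.05, where the background was 0.0557%, and the lowest adjusted p of a member was 0.966. At an unadjusted p under 0.05 there was 1 member, Mrps2, or 1.37% of the family against a background of 4.72%. This count moved with the settings, to 9 members with array weights (background 27.8%), 7 with library cluster as covariate (background 7.67%), 5 without MED13cTg 2 (background 3.48%), and 2 without WT 1 (background 11.7%) or with quantile normalization (background 4.21%). It fell to 0 without WT 2 (background 2.34%), WT 3 (background 2.96%), MED13cTg 1 (background 2.47%) or MED13cTg 3 (background 7.42%). With the replicate number as a block it was also 0 (background 5.16%). Mrps2 was among the members wherever the count was above 0. The library clusters were formed from the levels of these same libraries, so the count with them is a description only. The log2 differences ran from -0.29 to 0.21 with standard errors of 0.098 to 0.28. They lay below 0 for 52 of the 73 genes (71.2%, background 53.3%), with a median of -0.081 against -0.014 over all genes tested.

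**Figure D1:**
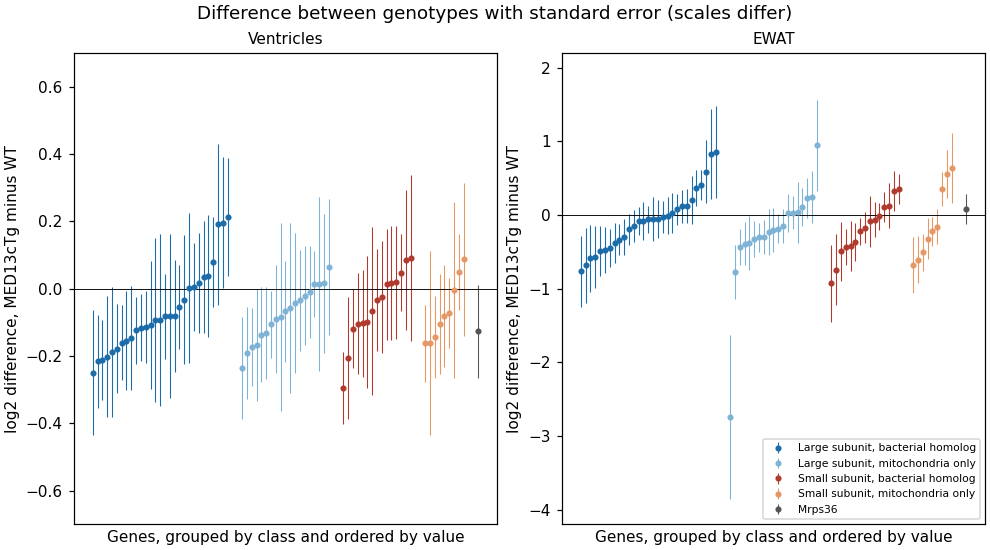
Differences between genotypes (MED13cTg minus WT, log2(FPKM + 1), y axis) with standard errors for the 73 genes, grouped on the x axis by subunit and by presence of a bacterial homolog, in ventricles (left) and EWAT (right, wider scale). Ventricle values run from -0.29 to 0.21, while EWAT values run from -2.74 (Mrpl37) to 0.95 (Mrpl39).

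The MED13cTg and WT ranges were separate for 2 members in ventricles, both lower in MED13cTg mice (2.74% of members, background 5.85% lower), and for 0 in the other direction (background 3.46%). The count of lower members depended on the libraries. It was 24 without MED13cTg 2 (background 12.4%), 8 without WT 2 (background 8.68%), 7 without WT 1 (background 18.7%), 5 without MED13cTg 1 (background 8.68%), 4 without MED13cTg 3 (background 12.6%) and 3 without WT 3 (background 8.56%). Leaving out WT 1 gave 3 higher members (background 16.2%). Mrps2, a small subunit protein with a bacterial homolog (mm9 chromosome 2, 28323586 to 28326697), had 21.9, 22.4 and 24.5 FPKM in WT 1, 2 and 3 and 18.0, 20.3 and 17.2 FPKM in MED13cTg 1, 2 and 3. Every MED13cTg value lay under the lowest WT value, and the log2 difference was -0.29 (SE 0.11, limma adjusted p = 0.966). Mrpl21, a large subunit protein with a bacterial homolog (mm9 chromosome 19, 3283047 to 3292837), had 94.1, 91.0 and 93.3 FPKM in WT, against 78.3, 90.2 and 72.4 FPKM in MED13cTg mice. MED13cTg 2 lay just under the lowest WT library and the other MED13cTg libraries well under it (log2 difference -0.21, SE 0.12, limma adjusted p = 0.966). With a library left out, the difference ran from -0.36 to -0.25 for Mrps2 and from -0.30 to -0.14 for Mrpl21.

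Among the genes linked to human cardiomyopathy, Mrpl3, which lies near the peptidyl transferase centre, had 138, 138 and 161 FPKM in WT ventricles and 110, 139 and 128 FPKM in MED13cTg ventricles. Mrpl44, of the large subunit, had 52.5, 44.6 and 51.7 FPKM in WT, against 44.5, 46.4 and 40.7 FPKM in MED13cTg mice. Mrps22, of the small subunit, had 24.0, 23.8 and 28.5 FPKM against 27.3, 26.8 and 24.7 FPKM. The genotypes overlapped for each of these 3 genes, with log2 differences of -0.22 (SE 0.14), -0.17 (SE 0.12) and 0.050 (SE 0.11) and a limma adjusted p of at least 0.966 for each.

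The stalk recruits translation factors to the large subunit. Its 5 members had a median log2 difference of 0.016 in ventricles, with 1 of 5 below 0. Mrpl12 had 455, 325 and 385 FPKM in WT, against 371, 503 and 307 FPKM in MED13cTg mice, a difference of 0.0020 (SE 0.22) with wide overlap. Mrpl11 differed by 0.035 (SE 0.17) and Mrpl10 by -0.16 (SE 0.11). The bacterial-type core of the large subunit lay lower, with 9 of 10 genes below 0 and a median of -0.12. Around the exit tunnel 3 of 6 genes were below 0 (median -0.0096), and in the central protuberance 6 of 7 were (median -0.068).

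By subunit, 20 of the 29 large subunit proteins with a bacterial homolog lay below 0 in ventricles (median -0.092) and so did 15 of the 19 without one (median -0.068). In the small subunit the counts were 9 of 15 with a homolog (median -0.034) and 7 of 9 without (median -0.080). Mrps36, which carries a ribosomal symbol but is known as a subunit of 2-oxoglutarate dehydrogenase, had 85.4, 67.3 and 71.9 FPKM in WT, against 62.9, 76.0 and 66.2 FPKM in MED13cTg ventricles (log2 difference -0.13, SE 0.14).

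Levels of the family shifted together from library to library within each genotype, and those of some other gene groups, though not all, shifted in a like way. The median deviation of the 73 genes from their WT mean was 0.15, -0.13 and -0.0030 in WT 1, 2 and 3, and -0.096, 0.16 and -0.21 in MED13cTg 1, 2 and 3. The genes under their WT mean numbered 16, 66 and 39 of 73 in WT 1, 2 and 3, against 53, 19 and 72 in MED13cTg 1, 2 and 3. Thus WT 1 and MED13cTg 2 were the high libraries and WT 2 and MED13cTg 3 the low ones. The library medians of the cytosolic ribosomal protein genes were 0.32, -0.18 and -0.13 in WT and 0.10, 0.25 and -0.22 in MED13cTg ventricles. Those of the nuclear genes of respiratory complex I were 0.30, -0.20 and -0.12 in WT and -0.22, 0.19 and -0.38 in MED13cTg ventricles. The cytosolic genes thus had the opposite sign to the family in MED13cTg 1. Mitochondrial ribosomal genes with other symbols had medians of 0.23, -0.19 and -0.050 in WT and -0.043, 0.25 and -0.16 in MED13cTg ventricles. Mitochondrial translation factors did not follow, with -0.13, 0.0051 and 0.11 in WT and -0.19, -0.093 and -0.072 in MED13cTg ventricles. Over all genes the library medians ran from -0.040 to 0.045. The median difference stood at 0.0041 (36 of 73 lower) without WT 1 and at 0.00069 (36 of 73 lower) without MED13cTg 3, and at -0.14 (67 of 73) without WT 2 and -0.16 (67 of 73) without MED13cTg 2. By rank correlation over all genes WT 1 was closest to MED13cTg 1 and 2, and WT 2 and 3 were closest to MED13cTg 3 and to each other. Within the former 3 libraries 61 of 73 genes were lower in MED13cTg mice (median -0.11, all genes -0.030 with 56.2% lower). Within the latter 3 libraries 68 of 73 were lower (median -0.16, all genes -0.028 with 56.2% lower). Mrps2 differed by -0.19 and -0.42 within these library sets and Mrpl21 by -0.16 and -0.34. Each set holds a genotype with a lone library, and no test was run within it. The sets were formed from the levels of these same libraries, so the counts within them are a description only. With the set as a covariate in the fit over all 6 libraries, 68 of 73 genes lay below 0 (median -0.14, all genes -0.029 with 57.9% lower), against 52 without it. No member passed the adjusted threshold in that fit. Its covariate came from these same libraries and is unbalanced by genotype, so the fit too is a description only.

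**Figure D2:**
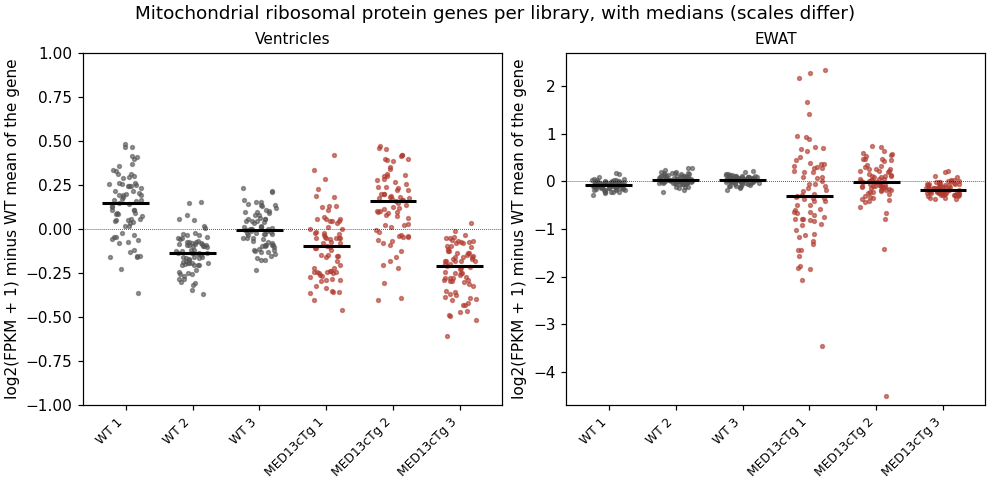
Deviation of each of the 73 genes from its WT mean (log2(FPKM + 1), y axis) in every library (x axis), with 1 point per gene and a bar at the median, for ventricles (left) and EWAT (right, wider scale). In ventricles the medians of WT 1 (0.15) and MED13cTg 2 (0.16) sit high and that of MED13cTg 3 (-0.21) low, and in EWAT the points of MED13cTg 1 are widely scattered.

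In EWAT no member passed the test either. Of 14942 genes tested, 0.0134% passed an adjusted p of 0.05 in limma (the 2 microRNA genes Mir196b and Mir3060, named after their values were seen, and 0 genes with the replicate number as a block). None of the 73 members did in either fit, and their lowest adjusted p was 0.738. At an unadjusted p under 0.05 there were also 0 members, against a background of 1.26%. The count was 4 without MED13cTg 3 (background 16.4%), 3 without MED13cTg 1 (background 1.73%) and 2 without MED13cTg 1 and 2 together (background 2.36%). It was 1, Mrpl37, with the replicate number as a block (background 1.97%) and with a pseudocount of 0.1 (background 1.24%). The same gene was the 1 member with a filter at 5 FPKM (72 members tested, background 1.46%) and with no variance trend (background 1.16%). The differences were wider than in ventricles, from -2.74 to 0.95 with standard errors of 0.18 to 1.11, and 48 of 73 genes lay below 0 (65.8%, background 49.3%). The median was -0.15 against 0.012 over all genes. The genotypes were separate for 17 members that were lower in MED13cTg mice (23.3%, background 7.8%) and for 4 that were higher (5.48%, background 4.89%). Leaving out MED13cTg 1 gave 26 lower (background 12.3%), leaving out MED13cTg 2 gave 32 (background 14.7%), and leaving out both, so that MED13cTg 3 stood alone, gave 48 (background 23.3%). Leaving out MED13cTg 3 gave 20 lower (background 22.4%) and 14 higher (background 14.9%), and leaving out WT 2 gave 7 higher (background 7.71%).

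Mrpl37, a large subunit protein with no bacterial homolog, had the widest difference. It stood at 2469, 2628 and 3107 FPKM in WT 1, 2 and 3 and at 247, 118 and 2284 FPKM in MED13cTg 1, 2 and 3. MED13cTg 3 lay just under WT and the other MED13cTg libraries far under it, in the same order as the epididymis markers, which summed to 11159, 207 and 65354 FPKM (log2 difference -2.74, SE 1.11, limma adjusted p = 0.738). The part of epididymal RNA in this value was not tested. In ventricles the gene had 175, 105 and 106 FPKM in WT, against 121, 155 and 87.1 FPKM in MED13cTg mice. The entry spans mm9 chromosome 4, 106584075 to 106739471, a stretch of 155397 bases that it shares with the entry for Ssbp3, so its value is uncertain. Ssbp3 itself had 13.6, 14.3 and 12.3 FPKM in WT EWAT and 10.2, 18.3 and 12.8 FPKM in MED13cTg EWAT. Cyb5rl, a neighbouring gene, had 20.2, 14.9 and 18.3 FPKM in WT EWAT and 5.54, 6.92 and 18.4 FPKM in MED13cTg EWAT, so that it too was low in MED13cTg 1 and 2. The Mrpl37 difference was -3.98 without MED13cTg 3 and -1.85 without MED13cTg 2. The summed level of all 73 genes lay between 6978 and 8011 FPKM in WT and was 4030, 4385 and 6401 FPKM in MED13cTg EWAT. Without Mrpl37 the sums were 4509 to 4903 FPKM in WT, against 3783, 4266 and 4117 FPKM in MED13cTg mice.

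**Figure D3:**
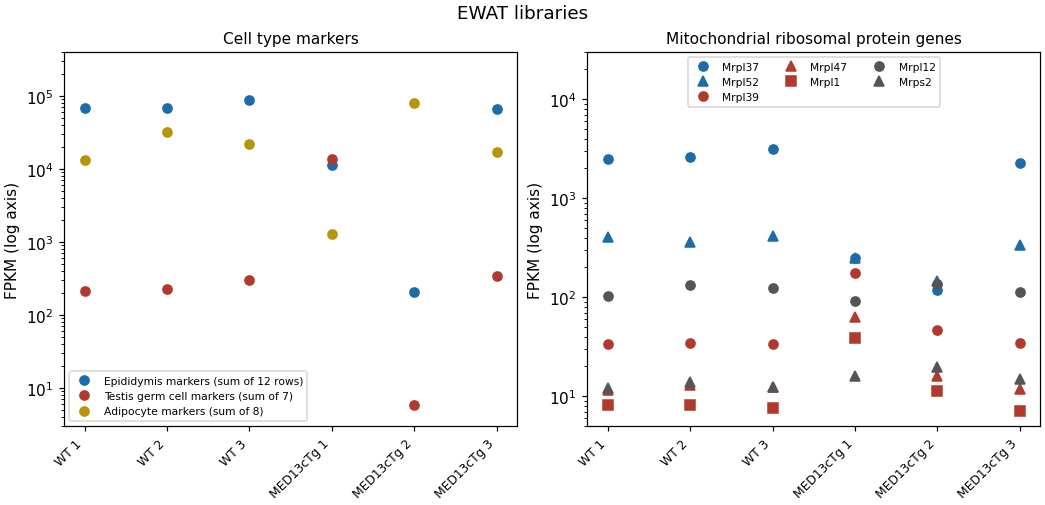
Summed FPKM of epididymis, testis germ cell and adipocyte markers (left) and FPKM of 7 members (right) in the 6 EWAT libraries, on log axes with 1 point per library. Mrpl37 is low, as are the epididymis markers, in MED13cTg 1 (247 FPKM) and MED13cTg 2 (118 FPKM), while Mrpl39, Mrpl47 and Mrpl1 are highest in MED13cTg 1, where the germ cell markers reach 13638 FPKM.

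The other members that were lower in MED13cTg EWAT without overlap were mostly lowest in MED13cTg 1. Mrps6, a small subunit protein whose entry is joined with the transporter gene Slc5a3, had 343, 355 and 382 FPKM in WT, against 85.2, 266 and 295 FPKM in MED13cTg mice (log2 difference -0.93, SE 0.52). Mrpl52, of the central protuberance, had 402, 362 and 420 FPKM against 249, 146 and 335 FPKM (-0.77, SE 0.37). In Mrpl52 the lowest library was MED13cTg 2, as in Mrpl37. Mrpl14, which lies at the interface between the subunits, had 93.7, 84.6 and 99.8 FPKM in WT, against 25.6, 79.5 and 76.3 FPKM in MED13cTg mice (-0.77, SE 0.48). Mrps21, whose promoter holds NRF1 letters, had 212, 235 and 248 FPKM against 66.4, 197 and 200 FPKM (-0.74, SE 0.48). All 4 had a limma adjusted p of 0.738, and MED13cTg 1 was the lowest library for each but Mrpl52. Without MED13cTg 1 the difference was -0.36 for Mrps6, -0.24 for Mrpl14 and -0.22 for Mrps21, and without MED13cTg 2 it was -0.45 for Mrpl52. The remaining 12 members lower without overlap had log2 differences of -0.68 to -0.22.

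The 4 members that were higher without overlap were Mrpl39, Mrpl3, Mrps25 and Mrps2. Mrpl39, a large subunit protein with no bacterial homolog, had 33.4, 34.2 and 33.5 FPKM in WT EWAT and 175, 47.2 and 34.4 FPKM in MED13cTg EWAT. MED13cTg 1 stood far above the rest and MED13cTg 3 exceeded the highest WT library only slightly (log2 difference 0.95, SE 0.62, limma adjusted p = 0.738), and the difference was 0.25 without MED13cTg 1. Mrpl3 had 29.2, 34.7 and 31.3 FPKM against 41.8, 48.6 and 37.1 FPKM (0.40, SE 0.21). Mrps2 had 12.2, 13.9 and 12.4 FPKM against 15.9, 19.6 and 14.8 FPKM (0.35, SE 0.21). In both, all 3 MED13cTg libraries shared in the difference and MED13cTg 2 was highest. Mrps25, a small subunit protein with no bacterial homolog whose locus is shared with the entry for Nr2c2, had 10.1, 11.7 and 10.8 FPKM against 18.0, 13.2 and 11.8 FPKM (0.35, SE 0.23), again with a limma adjusted p of 0.738 for each, and Mrps25 stood at 0.19 without MED13cTg 1.

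MED13cTg 1 took members in both directions. In this library 5 genes lay at least 1 log2 unit above their WT mean and 14 at least 1 unit below it, whereas MED13cTg 2 had 0 and 2 such genes and MED13cTg 3 had none. The share of all genes that lay this far was not counted. Over all genes MED13cTg 1 had rank correlations of only 0.351 to 0.494 with the other EWAT libraries, so the counts may not be particular to the family. Mrpl1 had 8.11, 8.08 and 7.65 FPKM in WT, against 39.2, 11.2 and 7.13 FPKM in MED13cTg EWAT, and Mrps22 had 11.3, 12.5 and 10.7 FPKM against 38.8, 12.9 and 12.2 FPKM. Mrpl47, chosen after its values were seen, had 11.6, 13.1 and 12.4 FPKM against 63.9, 15.9 and 11.8 FPKM. Each was highest in the library with 13638 FPKM of germ cell markers, and the part of germ cell RNA in these values was not tested. Mrpl44 had 26.0, 27.3 and 23.1 FPKM in WT, against 15.3, 23.7 and 22.3 FPKM in MED13cTg EWAT (-0.32, SE 0.24). The stalk genes overlapped between genotypes, with Mrpl12 at 102, 134 and 123 FPKM against 91.5, 137 and 112 FPKM (-0.083, SE 0.26), Mrpl10 at -0.058 (SE 0.18) and Mrpl11 at -0.012 (SE 0.25). Mrps36 had 14.7, 18.2 and 17.1 FPKM against 17.8, 20.0 and 15.5 FPKM (0.084, SE 0.21).

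**Figure D4:**
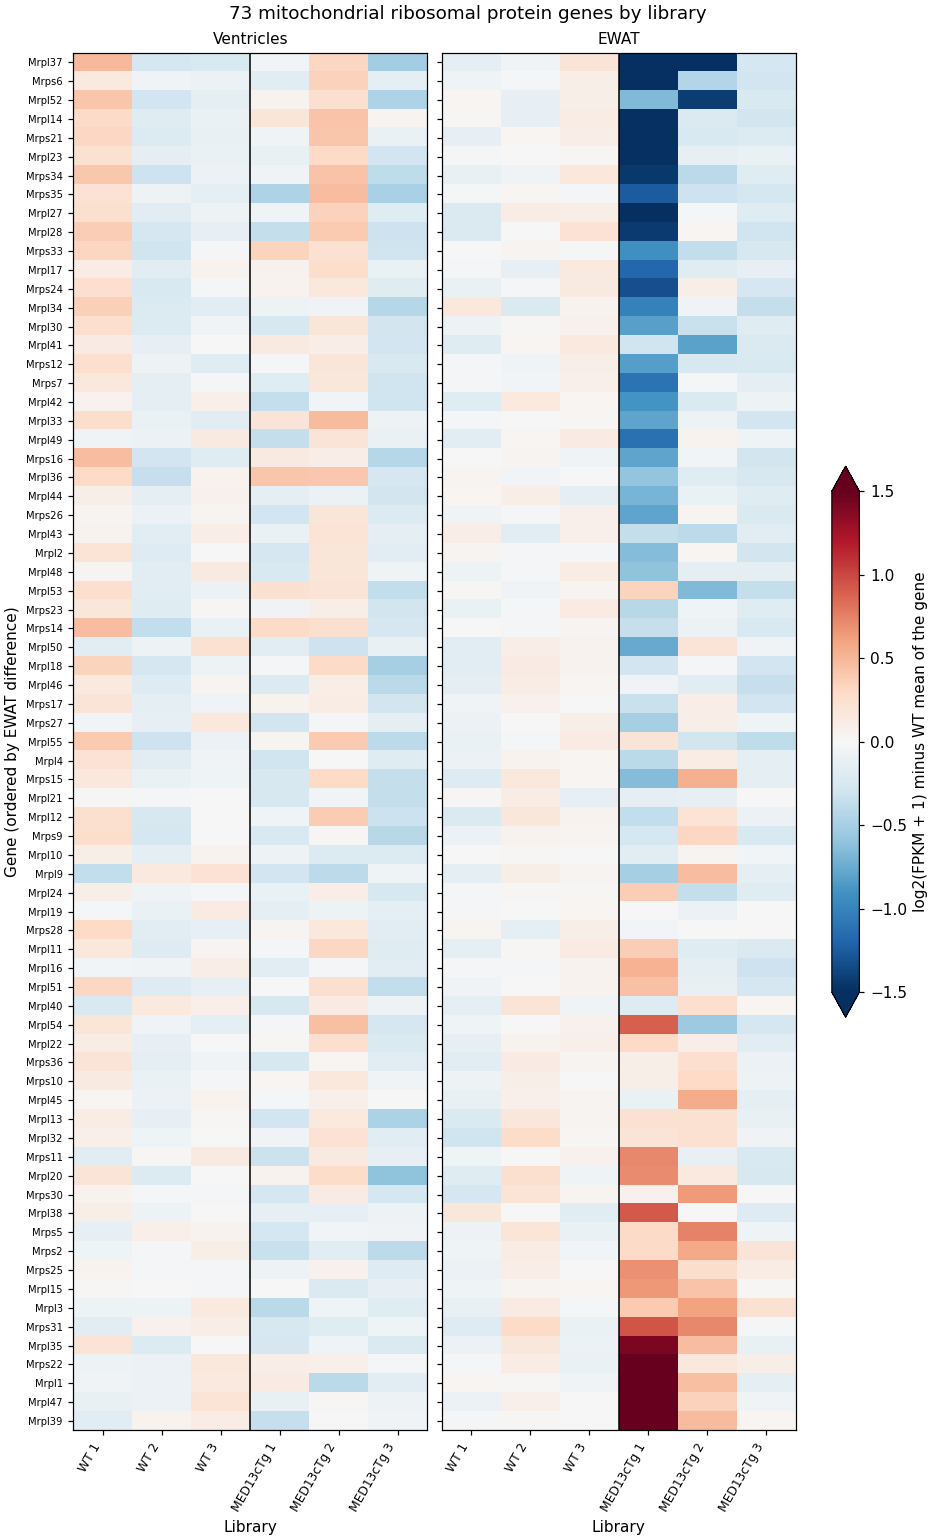
Deviation of each of the 73 genes (y axis) from its WT mean in each library (x axis), on the log2(FPKM + 1) scale (colour, limited to 1.5 either way), for ventricles (left) and EWAT (right), with genes in the order of their EWAT difference. Ventricle columns are shaded by library across the whole family, and in EWAT the strong colours lie mainly in MED13cTg 1.

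In EWAT MED13cTg 3, the library closest to WT (rank correlations of 0.967 to 0.970), 64 of 73 members were under their WT mean, with a median deviation of -0.18 against -0.017 over all genes. The medians in MED13cTg 1 and 2 were -0.30 and -0.013, with 46 and 37 genes under the WT mean. Those in WT 1, 2 and 3 were -0.074, 0.024 and 0.039, with 60, 23 and 21 genes under it, so that WT 1 came close to MED13cTg 3 in the count though not in the median. Every subunit class lay mostly below 0, with 19 of 29, 12 of 19, 11 of 15 and 6 of 9 genes below 0 in the order of classes given for ventricles, and medians of -0.058, -0.21, -0.17 and -0.22. Of the 17 members that were lower without overlap, 6, 4, 4 and 3 came from these classes.

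The EWAT difference also varied with level and with transcript length. Across the 73 genes its Spearman rho was -0.63 with the mean WT level (0.11 in ventricles) and 0.48 with length (all genes 0.11). The WT level enters the difference, so the rho with level is in part built in. Transcripts of the family are short, with a median of 1226 bases (range 418 to 6073) against 2676 bases over the EWAT genes tested. The 25 members under 1000 bases had a median log2 difference of -0.39, with 21 below 0. The 29 of 1000 to 2000 bases had a median of -0.15, and the 19 of 2000 bases or more had a median of 0.12, with 7 below 0. Of the 17 members lower without overlap, 11 were under 1000 bases, and of the 4 that were higher, 0 were. Spearman's rho between deviation and length over the 73 genes was 0.35, 0.48 and 0.42 in MED13cTg 1, 2 and 3 and -0.075, 0.27 and -0.30 in WT, as a description of genes that share libraries. Over all 12417 EWAT genes with a known length it was 0.033, 0.21 and 0.30 in MED13cTg and 0.064, -0.058 and -0.033 in WT. With the length trend over all genes removed from each library, 31 of 71 members lay below 0 (Mrpl53 and Mrps6, whose entries join symbols, left out, median 0.062, all genes 0.051). With the trend removed and MED13cTg 3 alone, 54 of 71 did (median -0.085, all genes -0.0049). In ventricles rho was -0.45, 0.28 and 0.45 in WT and -0.34, -0.43 and 0.18 in MED13cTg mice. Over all 10724 ventricle genes with a known length it was -0.30, 0.32 and 0.17 in WT and -0.041, -0.29 and 0.25 in MED13cTg mice. The ventricle median of the family with the trend removed was -0.081 (all genes 0.0020), with 53 of 71 below 0.

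**Figure D5:**
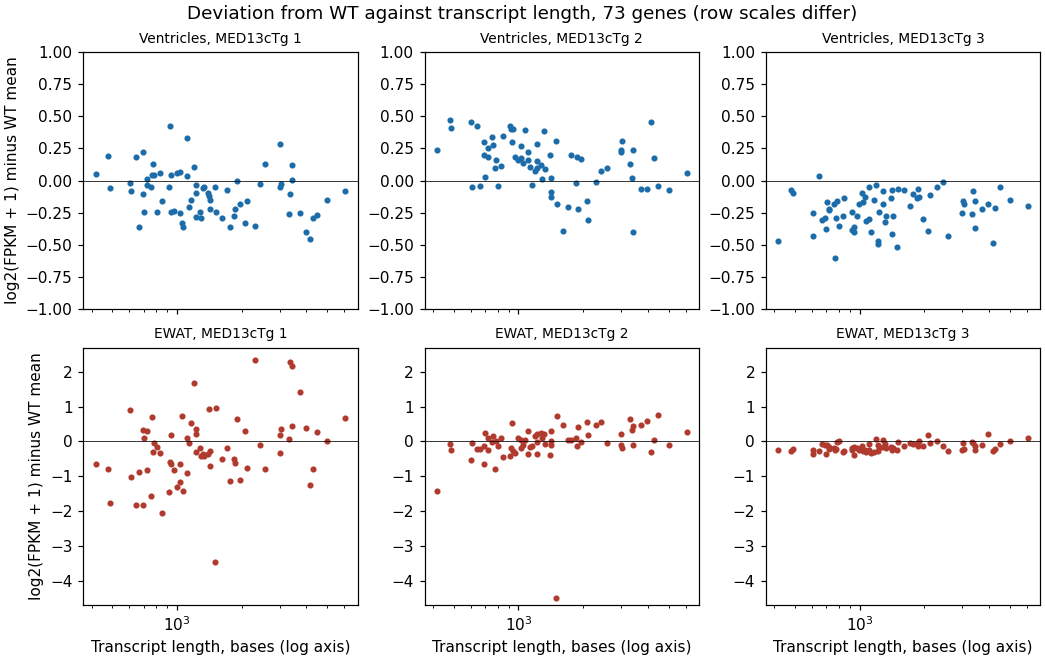
Deviation of each of the 73 genes from its WT mean (log2(FPKM + 1), y axis) against transcript length in bases (log x axis) in the MED13cTg libraries of ventricles (top) and EWAT (bottom, wider scale). In EWAT short transcripts lie lower than long ones, with rho of 0.35, 0.48 and 0.42 (all genes 0.033, 0.21 and 0.30). The lowest points in MED13cTg 1 and 2 are Mrpl37.

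Other genes of mitochondrial translation also held no member past the adjusted threshold in either tissue. In ventricles, 11 of 12 translation factors lay below 0 (median -0.096), among them the elongation factor Tufm with 194, 197 and 223 FPKM in WT, against 145, 196 and 160 FPKM in MED13cTg mice (-0.30, SE 0.15). Of the aminoacyl-tRNA synthetases and their relatives 15 of 19 were below 0 (median -0.035), of the assembly and rRNA modification factors 11 of 17 (median -0.10), and of the genes of mitochondrial transcription and RNA stability 7 of 7 (median -0.093). Fastkd2, an RNA-binding assembly factor, had 11.7, 11.5 and 13.0 FPKM in WT, against 6.21, 5.47 and 6.61 FPKM in MED13cTg ventricles. Its groups were far apart (-0.88, SE 0.11), yet its limma adjusted p was 0.117, with a range of 0.0229 to 0.606 over 17 settings and a value under the threshold in 1 of them. The rRNA methyltransferase gene Mrm1 had 12.2, 11.4 and 12.6 FPKM against 16.5, 16.7 and 14.3 FPKM (0.36, SE 0.10, limma adjusted p = 0.944). The 10 mitochondrial ribosomal genes with other symbols, such as Dap3 and Chchd1, had 6 below 0 (median -0.012), and in EWAT again 6 (median -0.059).

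In EWAT the other lists had medians above 0, with 5 of 12 translation factors (median 0.13), 6 of 19 synthetases (median 0.079), 7 of 17 assembly factors (median 0.12) and 1 of 8 transcription genes (median 0.083) below it. Nsun4, an rRNA methyltransferase, had 5.13, 4.92 and 5.10 FPKM in WT, against 41.8, 6.06 and 5.73 FPKM in MED13cTg EWAT, again highest in MED13cTg 1. The leucyl-tRNA synthetase gene Lars2 was set apart by a WT library, with 275, 270 and 1459 FPKM in WT, against 230, 138 and 161 FPKM in MED13cTg mice (-1.46, SE 0.73, limma adjusted p = 0.738).

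Cytosolic ribosomal protein genes and nuclear genes of respiratory complex I were set beside the family. In ventricles 31 of 84 cytosolic ribosomal genes lay below 0 (median 0.036) and 32 of 36 complex I genes did (median -0.12), with 1 past the threshold, Ndufs1 (limma adjusted p = 0.0428). In EWAT 83 of 85 cytosolic ribosomal genes lay below 0 (median -0.80), with library medians of -1.27, -1.02 and -0.13 in MED13cTg 1, 2 and 3, and 28 of 36 complex I genes did (median -0.22). The differences between these lists and the mitochondrial ribosomal genes were not tested.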

How the data were processed

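RNA of ventricles and EWAT was sequenced by the authors from 3 WT and 3 MED13cTg mice per tissue, and each tissue's FPKM values were deposited in a table of its own. The authors aligned reads with TopHat (genome build mm9 in the submitters' processing notes) and estimated FPKM with Cufflinks at default settings, and the versions are not given in the sources used here. The deposited fold column, a ratio of genotype means, the authors' mean FPKM and 1 unnamed column of values were not used. Absolute depth is unknown, and low FPKM values are least precise where depth is lowest. Relative depth, judged from FPKM values under 0.15, was 0.917 to 1.02 in ventricles and 0.662 to 0.997 in EWAT, with the lowest values in MED13cTg 1 (0.662) and MED13cTg 2 (0.755).

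Within each tissue, genes whose mean over the 6 libraries reached 1 FPKM entered a limma 3.58.1 fit (R 4.3.3) of log2(FPKM + 1) (lmFit, eBayes with a mean-variance trend, Benjamini-Hochberg over all genes, threshold 0.05). The procedure was tested on simulated data. Entries naming no gene (0.135%) were left out. Libraries are separate mice per the labels. The members and lists were chosen with earlier results of these data known. Members named were those without overlap between genotypes (up to 5 each way), the 5 highest and 5 lowest in WT, the cardiomyopathy and stalk genes and Mrps36. Of the members, 14 share a locus with another entry and 2, Mrpl53 and Mrps6, share an entry with another symbol, so their values are uncertain. Libraries with the same replicate number correlated in EWAT (0.346, 0.307 and 0.150 for numbers 1, 2 and 3), while those with different numbers had -0.416 to 0.162. These correlations are of deviations centred within each genotype, so high values for the same number lower those for different numbers. In EWAT WT 3 and MED13cTg 2 (0.162) exceeded number 3 (0.150), so whether the numbers mark pairs is not settled. A fit with the number as a block was run in both tissues. It is not given whether a number marks the same litter. Transcript lengths came from GENCODE M21 and promoters from RefSeq, both on GRCm38, matched by symbol. Python 3.11.15, pandas 2.3.3, numpy 2.4.6 and matplotlib 3.10.9 were used for the rest.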

Additional observations from a re-analysis of the deposited data

Results flagged for a closer look

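For 5 members every MED13cTg library lay on the same side of the WT mean within a tissue, and on opposite sides in ventricles and EWAT. The share of all genes that do so was not counted. Some sides were held narrowly. Mrpl15 had 23.16 FPKM in ventricle MED13cTg 1 (WT mean 23.19) and 8.38 FPKM in EWAT MED13cTg 3 (WT mean 8.30). Mrpl39 had 81.4 FPKM in ventricle MED13cTg 2 (WT mean 82.1). The log2 difference was -0.29 in ventricles and 0.35 in EWAT for Mrps2, and -0.22 and 0.40 for Mrpl3. It was -0.14 and 0.95 for Mrpl39, -0.12 and 0.36 for Mrpl15, and 0.21 and -0.77 for Mrpl14. The difference between tissues was not tested, because their tables were estimated separately, and no gene among them passed the adjusted threshold in either tissue. In EWAT the values of Mrpl39, Mrpl15 and Mrpl14 lay farthest from WT in MED13cTg 1, the library with 13638 FPKM of germ cell markers, and those of Mrps2 and Mrpl3 in MED13cTg 2.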

How the results depend on the processing

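No member passed the adjusted threshold in any of the 17 ventricle or 18 EWAT fits, with smallest adjusted p of 0.109 and 0.103 in limma. Leaving out each library in turn gave ventricle medians of -0.16 to 0.0041 with 36 to 67 members lower, and EWAT medians of -0.26 (without MED13cTg 2) to -0.097 (without MED13cTg 1) with 45 to 50 lower. In ventricles 33 members were lower (median 0.0056) with array weights and 39 (median -0.012) with quantile normalization, and array-weight estimation stopped early in a fit. The EWAT median of -0.15 was -0.088 with median-of-ratios scaling, where the median of all genes moved from 0.012 to 0.068. It was 0.062 (31 members lower) with the length trend removed and -0.085 with that and without MED13cTg 1 and 2 together, both chosen after seeing the data. Genes called in ventricles (7) were 15 with array weights, 3 with a filter at 5 FPKM, 4 with the replicate block and 4 to 9 with a library left out. In EWAT (2) they were 0 with array weights, no filter, the replicate block or the length trend removed, with and without MED13cTg 1 and 2. They were 19 without MED13cTg 1 and 2 together, where the lone library is assumed to vary like WT, and 1 to 5 with a library left out. With the replicate block, members at an unadjusted p under 0.05 went from 1 to 0 in ventricles (Mrps2, background 4.72% and 5.16%). In EWAT they went from 0 to 1 (Mrpl37, background 1.26% and 1.97%). No member call at the adjusted threshold changed, and ventricle numbers did not pair the libraries (correlations 0.083, -0.19 and 0.14). Differences near 0 turned sign: in ventricles Mrpl11 (-0.059) and Mrpl12 (-0.14) with library cluster as covariate. In EWAT, Mrpl10 was 0.0045 and Mrpl11 was 0.051 with median-of-ratios scaling. With the length trend removed Mrpl10 was 0.096, Mrpl11 0.028 and Mrpl12 0.12, and without MED13cTg 1 and 2 as well Mrpl10 was 0.021 and Mrpl12 0.0083. Mrps36 was -0.011 with quantile normalization and -0.093 without MED13cTg 1 and 2. With a library left out, ventricle Mrpl11 ran from -0.10 to 0.14 and Mrpl12 from -0.19 to 0.17, and EWAT Mrpl10 from -0.11 to 0.00024, Mrpl11 from -0.20 to 0.092, Mrpl12 from -0.23 to 0.062 and Mrps36 from -0.00068 to 0.17. The causes were not tested.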
